A study of Mus musculus with 6 samples.

Results

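A set of 49 genes of actin filament assembly and turnover was chosen by gene symbol, for their known roles, among 52459 gene symbols in the count table. All 49 were present and all passed the filter on low counts, which left 15380 genes for testing. RNA was sequenced from bone marrow derived macrophages of C57BL/6 mice grown with GM-CSF, a growth factor for myeloid cells. Of the 6 libraries, 3 came from cells given piceatannol overnight from day 7 of culture and 3 from control cells, for which the treatment notes give vehicle. Piceatannol is a plant stilbene, a relative of resveratrol, that inhibits the kinase Syk among other enzymes. The sources used here do not give its dose or name the vehicle, and the labels do not say whether replicate libraries stem from separate mice or cultures, so p-values measure the spread between these libraries.

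Actin monomers join into filaments that push the cell edge forward, and the filaments are then cut and recycled into monomers. Thymosins and profilins hold the monomer pool, the Arp2/3 complex starts branches when switched on by WASP and WAVE proteins, formins and Ena/VASP proteins lengthen filaments, capping proteins stop them, cofilins and coronins take them apart, and crosslinkers bundle them. Macrophages use this cycle for crawling, for engulfing particles and for building podosomes.

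The libraries held 33276569 to 49283203 counts with piceatannol and 43586270 to 58697084 in control. All 9 macrophage markers examined were detected in both groups. Lyz2, the lysozyme gene of myeloid cells, had 10224 ± 830 CPM (counts scaled by library total and normalisation factor) with piceatannol and 14876 ± 1791 CPM in control (SD, n = 3 each). Markers used for dendritic cells differed widely in level. H2-Ab1 had 1079 ± 113 CPM with piceatannol and 5619 ± 391 CPM in control (SD, n = 3 each). Flt3 averaged only 0.577 CPM with piceatannol and 2.73 CPM in control, and Clec9a 1.94 CPM with piceatannol and 1.15 CPM in control. Xcr1 was too low to be tested. Mitochondrially encoded genes took 2.15% ± 0.431 of the counts with piceatannol and 0.820% ± 0.0447 in control (SD, n = 3 each).

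The question of the series is how piceatannol alters the macrophage transcriptome, and most transcripts of the actin machinery were lower with it. Of the 49 genes, 39 fell and 7 rose, and 3 did not pass the threshold (adjusted p under 0.05 in the quasi-likelihood F test of edgeR, Benjamini-Hochberg, all genes tested). Over all genes tested the same rule called 38.3% lower and 38.8% higher, and these shares also stand beside the counts by role below. The median log2 fold change, piceatannol over control, was -0.85 for the 49 genes and 0.01 for all genes tested. At least 2-fold falls were found for 23 of the 49 genes, against 16.6% of all genes tested, and at least 2-fold rises for 3, against 17.5%. In a bulk sample, fewer cells of a type and less RNA per cell cannot be told apart.

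The 3 piceatannol values lay below all 3 control values for 39 of the genes, an order found for 39.2% of all genes tested. They lay above all 3 control values for 7, against 39.9%. Most of the genes are abundant: 37 averaged at least 100 CPM over all 6 libraries. Of these 37, 32 fell and 3 rose, where 46.1% of the 2320 tested genes of that abundance fell and 40.8% rose. A fall of at least 2-fold was found for 20 of the 37, against 13.5% of the genes of that abundance. The abundance limit was chosen after the values were seen. Since the mean covers both groups, a gene can reach it through control alone. Coro1a, Twf2 and Coro7 did so, with piceatannol means of 88.4, 70.6 and 98.8 CPM, and all of them are among the falls. The counts at this limit are thus a description and no separate support.

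**Figure D1:**
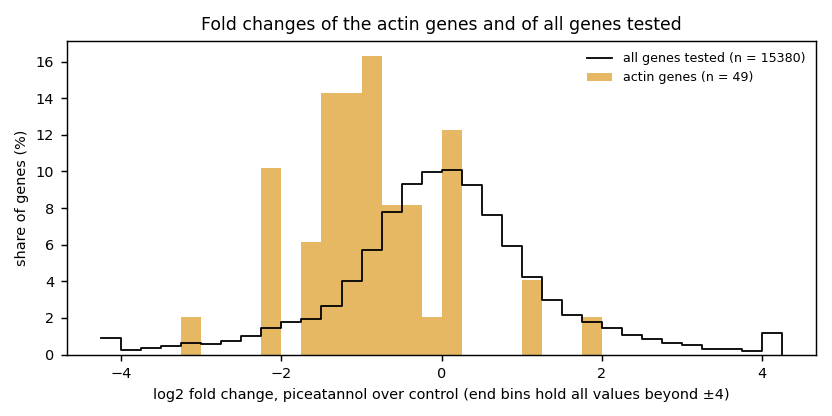
Share of genes (%) by log2 fold change, piceatannol over control, for the 49 actin genes (bars) and the 15380 genes tested (line). Bins are of equal width except the end bins, which hold all values beyond -4 and 4. The line centres near 0, at a median of 0.01, while most bars stand to the left of it, with a median of -0.85.

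Together the 49 genes took 1.15%, 1.24% and 1.21% of the counts in the piceatannol libraries, against 2.87%, 3.01% and 2.80% in the control libraries. Each piceatannol library was thus below each control library. The summed level per length was 4086 ± 177 FPKM (fragments scaled by gene length and library size) with piceatannol and 10739 ± 467 FPKM in control (SD, n = 3 each). The largest parts of this sum were Tmsb4x, at a mean of 868 FPKM with piceatannol and 3587 FPKM in control, and Actb. Actb averaged 448 FPKM with piceatannol and 1390 FPKM in control, so a few abundant genes weigh heavily in the sum. Across the 49 genes, those with a higher FPKM in control tended to have a lower log2 fold change, with a Spearman rank correlation of -0.57. This is a description over genes that share the same libraries, and the control values enter both measures.

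**Figure D2:**
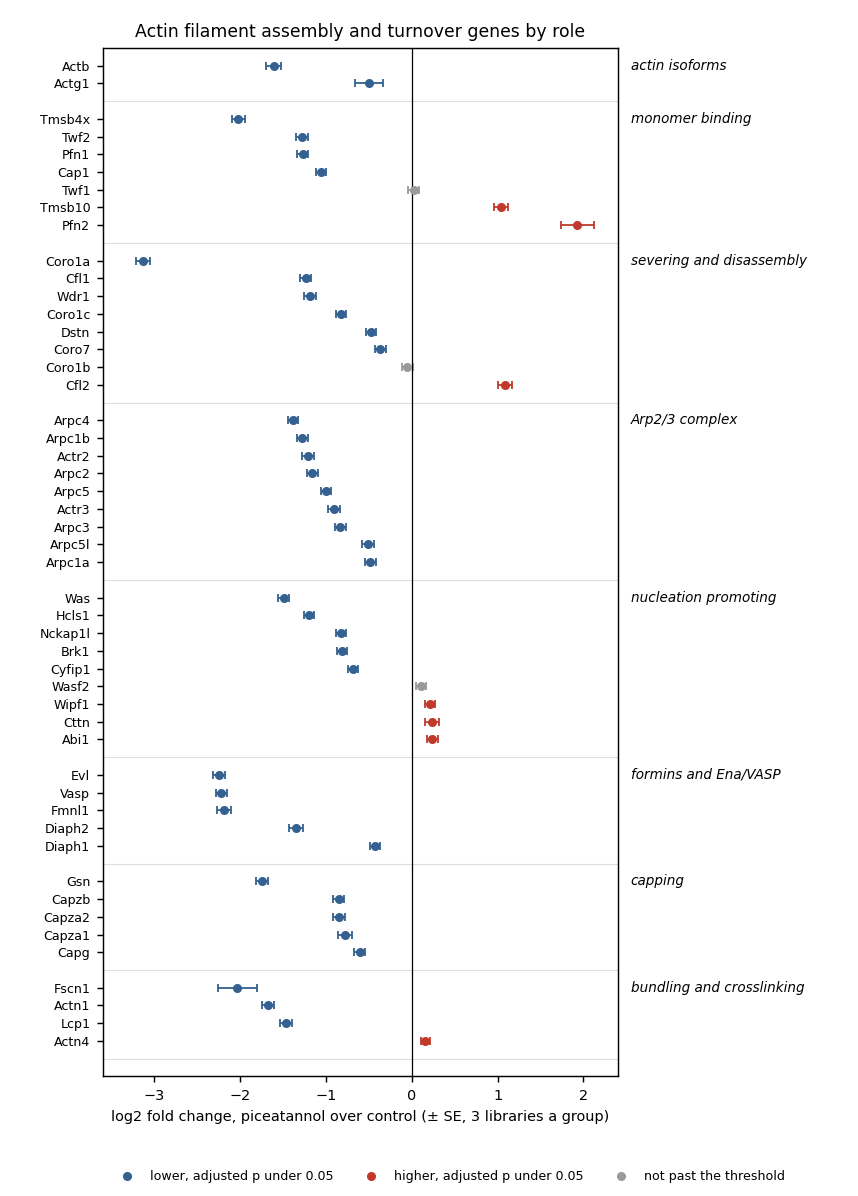
log2 fold change, piceatannol over control, of each of the 49 genes (points, with the standard error as bars), grouped by role and coloured by the call. The Arp2/3, formin and Ena/VASP, and capping groups lie wholly to the left of 0, whereas Pfn2, Cfl2 and Tmsb10 stand to the right at 1.93, 1.08 and 1.04.

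Both cytoplasmic actin genes fell. Actb encodes beta-actin, the main building block of the filaments (chromosome 5, 142903115 to 142906754, GRCm38), and had 1083, 1335 and 1239 CPM with piceatannol, against 3577, 4135 and 3455 CPM in control. The groups stood far apart, with a log2 fold change of -1.61 ± 0.09 (SE), for which edgeR's quasi-likelihood F test gave a Benjamini-Hochberg adjusted p = 2.63e-12. Actg1, the gene of gamma-actin (chromosome 11, 120345690 to 120348542, GRCm38), had 3.97, 6.20 and 6.35 CPM with piceatannol, against 7.59, 6.72 and 8.99 CPM in control. Its groups came close without overlapping, and the difference of -0.50 ± 0.17 on the log2 scale (SE) had a Benjamini-Hochberg adjusted p = 0.0112 in edgeR's quasi-likelihood F test. It no longer passed without piceatannol replicate 1 (adjusted p = 0.0612) and without control replicate 3 (adjusted p = 0.0574) in the same test, nor with GC and length trends removed (adjusted p = 0.0646), an alternative chosen after the data were seen. The Actg1 counts are uncertain: 56.7% of the 50-base words of its longest annotated transcript also occur in transcripts of other genes, and how such reads were counted is not stated.

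Of 7 monomer-binding genes, 4 were lower and 2 higher. Over all genes tested 38.3% were lower and 38.8% higher, so with 7 genes these counts are no result about the role. Tmsb4x, which encodes thymosin beta 4, the chief sequestering protein of actin monomers in white blood cells (chromosome X, 167207093 to 167209315, GRCm38), had 1166, 1301 and 1157 CPM with piceatannol. In control it had 4981, 5049 and 4718 CPM. This was a 4.07-fold fall with a log2 fold change of -2.03 ± 0.08 (SE), for which edgeR's quasi-likelihood F test gave a Benjamini-Hochberg adjusted p = 2.86e-15, and every piceatannol library was far below every control library. Tmsb10, the gene of the related thymosin beta 10, had 121, 140 and 143 CPM with piceatannol and 58.9, 73.5 and 63.8 CPM in control, so it rose by 1.04 ± 0.08 on the log2 scale (SE). Of its 50-base words, 43.5% occur in transcripts of other genes, so its values are uncertain.

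The profilins, which hand monomers to growing ends, went opposite ways. Pfn1, the common form, had 404, 424 and 451 CPM with piceatannol, against 1017, 1095 and 977 CPM in control, a log2 fold change of -1.27 ± 0.07 (SE). Pfn2, a form best known from neurons, had 7.55, 8.53 and 6.33 CPM with piceatannol and 2.50, 2.07 and 1.32 CPM in control. Neither gene's groups overlapped, and Pfn2 rose by 1.93 ± 0.20 on the log2 scale (SE), for which edgeR's quasi-likelihood F test gave a Benjamini-Hochberg adjusted p = 5.77e-08. Per length, Pfn2 remained a small part of the pair, with 1.18% ± 0.210 of the summed profilin FPKM with piceatannol and 0.128% ± 0.0371 in control (SD, n = 3 each). Cap1, which helps recycle monomers from cofilin, had a log2 fold change of -1.06. Of the twinfilins, which bind monomers and barbed ends, Twf2 fell (-1.28) while Twf1 averaged 63.6 ± 2.34 CPM with piceatannol and 62.6 ± 2.35 CPM in control (SD, n = 3 each) and did not pass.

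**Figure D3:**
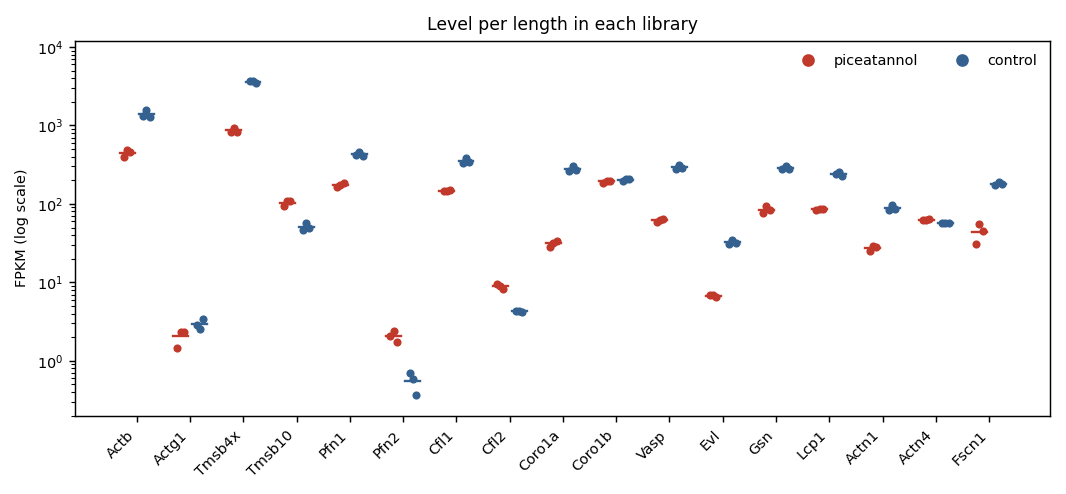
Level per length (FPKM, log scale) of 17 of the genes in each library (points), with the mean of each group as a line. Beside most pairs the piceatannol points are the lower ones, as for Coro1a at a mean of 31.3 FPKM against 279 in control, while Tmsb10, Pfn2 and Cfl2 are the reverse.

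Of 8 genes for severing and disassembly, 6 fell and 1 rose. The lowest fold change of all 49 genes was that of Coro1a, which encodes coronin 1A, the coronin of white blood cells (chromosome 7, 126699773 to 126707787, GRCm38). It had 80.1, 89.5 and 95.4 CPM with piceatannol, against 724, 848 and 759 CPM in control, an 8.79-fold fall. The log2 fold change was -3.14 ± 0.08 (SE), for which edgeR's quasi-likelihood F test gave a Benjamini-Hochberg adjusted p = 1.58e-17, and the groups were far apart. Coro1b, the coronin that removes Arp2/3 from branches, averaged 466 ± 17.5 CPM with piceatannol and 484 ± 20.9 CPM in control (SD, n = 3 each) and did not pass. Coro1c (-0.83) and Coro7 (-0.37), a coronin of the Golgi, fell by less than Coro1a on the log2 scale.

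The balance within the coronins therefore differed between the groups. Coro1a made up 11.6%, 12.2% and 12.7% of the summed coronin FPKM with piceatannol and 51.5%, 54.1% and 51.1% in control. Coro1b made up 75.4% ± 0.755 with piceatannol and 38.2% ± 1.22 in control (SD, n = 3 each). With 3 libraries against 3, an exact two-sided permutation test cannot give less than p = 0.1, and it gave 0.1 for both shares. The test compares the groups without regard to replicate numbers. The shares of related genes below gave the same exact p unless another value stands beside them.

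Cofilins bind and cut older filaments. Cfl1, the cofilin of most tissues (chromosome 19, 5490455 to 5495201, GRCm38), had 351, 344 and 364 CPM with piceatannol, against 785, 902 and 811 CPM in control, a log2 fold change of -1.24 ± 0.07 (SE). Cfl2, known as the muscle form, had 31.7, 29.9 and 27.4 CPM with piceatannol and 13.99, 14.10 and 13.84 CPM in control, a rise of 1.08 ± 0.08 on the log2 scale (SE). Both were free of overlap between groups, in opposite directions. Dstn, the gene of destrin, a cofilin relative, fell by 0.48 on the log2 scale, and Wdr1, whose product AIP1 helps cofilin, by 1.19. Per length, Cfl1 made up 66.5% ± 1.48 of the 3 cofilin family genes with piceatannol and 78.5% ± 1.16 in control, and Dstn 29.5% ± 1.18 with piceatannol and 20.6% ± 1.11 in control (SD, n = 3 each).

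**Figure D4:**
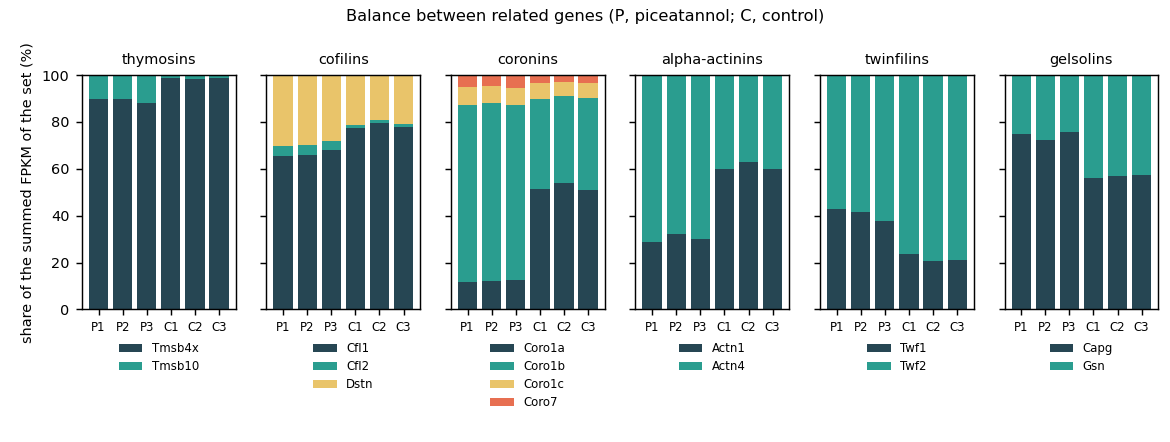
Share (%) of each gene in the summed FPKM of its set of related genes, in each library (P1 to P3, piceatannol; C1 to C3, control). The coronin bars are mostly Coro1b in the piceatannol libraries and just over 50% Coro1a in control, and the alpha-actinin bars are mostly Actn4 with piceatannol and mostly Actn1 in control.

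The Arp2/3 complex, which starts a new filament on the side of an old one, was lower in every gene: 9 of 9 fell, with log2 fold changes between -1.38 and -0.48. Arpc2, the subunit gene with the highest FPKM, had 312, 338 and 313 CPM with piceatannol, against 715, 730 and 707 CPM in control, a log2 fold change of -1.16 ± 0.06 (SE). Arpc4 had 106, 110 and 108 CPM with piceatannol and 288, 294 and 266 CPM in control (-1.38 ± 0.06, SE). Arpc1a had 63.6, 69.7 and 64.8 CPM with piceatannol and 87.4, 95.3 and 93.8 CPM in control (-0.48 ± 0.06, SE). The replicates of each group lay close together for these 3 genes, and no group overlapped. The core genes Actr2 (-1.21), Arpc3 (-0.83), Arpc5 and Actr3 (-0.91) fell as well, though 49.8% of the 50-base words of Actr3 occur in other genes' transcripts.

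In the Arpc1 and Arpc5 pairs, the form with the lower FPKM had the smaller fall. Arpc1a, the less abundant partner of Arpc1b (-1.28), made up 27.1% ± 1.32 of their summed FPKM with piceatannol and 17.7% ± 0.205 in control. Arpc5l (-0.51) made up 12.2% ± 1.01 of its sum with Arpc5 with piceatannol and 8.97% ± 0.184 in control (SD, n = 3 each). Arpc1b shares 42.2% of its 50-base words with other genes' transcripts, which limits its value.

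Promoter windows were searched for the CArG box, the site of SRF, a transcription factor known to drive many actin genes together with cofactors that sense actin monomers. RefSeq promoter windows (GRCm38.p6) were found for 41 of the 49 genes, and the 250 bases before the start held a CArG box in 2 of them, or 4.88%, against 1.62% of 27025 genes. An ETS element, the letters GAGGAAGT or their reverse complement ACTTCCTC, which PU.1 and its relatives can bind, was in 1 of the 41, or 2.44%, against 2.79% of all genes. The matches are shown 5′ to 3′ on the strand of the gene, with the motif in capitals, because they are the only ones among these 41 genes. The 8 genes without a window were not searched. The printed stretches lie at chr11:120348556-120348605 (minus strand, Actg1), chr6:113377863-113377892 (plus strand, Arpc4) and chr11:103171068-103171115 (plus strand, Fmnl1).
Actg1, CArG box starting 90 bases before the start: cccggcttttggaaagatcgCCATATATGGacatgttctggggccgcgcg
Arpc4, CArG box starting 250 bases before the start: CCTAATTTGGtgcccaacctgaggtcgggc
Fmnl1, ETS element starting 50 bases before the start: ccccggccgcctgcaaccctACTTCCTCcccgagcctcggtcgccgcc
A match is a run of letters and not a measured binding site. All 3 of these genes were lower with piceatannol, as were 39 of the 49 genes with or without a match. Srf itself averaged 48.3 ± 0.655 CPM with piceatannol and 71.9 ± 5.11 CPM in control (SD, n = 3 each) and fell, by 0.57 on the log2 scale. Of the SRF cofactor genes, Mkl1 did not pass (-0.02) and Mkl2 rose (1.11). A part of SRF or PU.1 in the falls was not tested.

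Of 9 genes that switch on the Arp2/3 complex, 5 were lower, 3 higher and 1 short of the threshold. Over all genes tested 38.3% were lower and 38.8% higher, so with 9 genes these counts are no result about the role. Was, the gene of WASP, the activator of blood cells that is missing in Wiskott-Aldrich syndrome (chromosome X, 8081453 to 8090498, GRCm38), had 44.3, 49.5 and 49.9 CPM with piceatannol. In control it had 132, 141 and 132 CPM, and its log2 fold change was -1.49 ± 0.07 (SE), for which edgeR's quasi-likelihood F test gave a Benjamini-Hochberg adjusted p = 3.13e-14. Wipf1 encodes WIP, the protein that binds and stabilises WASP, and rose slightly, by 0.21 on the log2 scale. The ratio of Wipf1 to Was FPKM was 2.21 ± 0.104 with piceatannol and 0.679 ± 0.0383 in control (SD, n = 3 each), with no overlap and an exact two-sided permutation p = 0.1, the smallest possible here.

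The WAVE complex is built from 5 subunits, and its genes did not move as one. Nckap1l, the blood cell form of NAP1 (-0.82), Cyfip1 (-0.68) and Brk1 fell. Brk1, the gene of the smallest subunit and the one with the highest FPKM of the 9 activator genes over all libraries, had 117, 108 and 111 CPM with piceatannol and 193, 203 and 194 CPM in control (-0.81 ± 0.06, SE). Abi1, an adaptor subunit gene, had 187, 186 and 157 CPM with piceatannol and 151, 149 and 148 CPM in control. Its libraries did not overlap, and it rose by 0.24 ± 0.07 on the log2 scale (SE), for which edgeR's quasi-likelihood F test gave a Benjamini-Hochberg adjusted p = 0.00284. Wasf2, the gene of WAVE2 itself, averaged 266 ± 15.8 CPM with piceatannol and 247 ± 7.48 CPM in control (SD, n = 3 each) and did not pass, though it did with upper-quartile scaling or a stricter filter.

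Set against Nckap1l within each library, Wasf2 had an FPKM ratio of 0.444 ± 0.0266 with piceatannol and 0.233 ± 0.0129 in control, and Abi1 0.459 ± 0.0539 with piceatannol and 0.219 ± 0.00548 in control. For Brk1 this ratio was 1.07 ± 0.0611 with piceatannol and 1.06 ± 0.0606 in control (SD, n = 3 each). The exact two-sided permutation p of the ratio was 0.1 for Wasf2 and Abi1 and 0.7 for Brk1. These gene pairs were chosen after the values were seen. Among the cortactins, which hold branches in place, the white blood cell form Hcls1 fell (-1.20) and the widespread form Cttn rose by 0.24, a call that was lost without piceatannol replicate 2 (adjusted p = 0.0549) and without control replicate 3 (adjusted p = 0.0551) in edgeR's quasi-likelihood F test. Cttn made up 8.77% ± 0.835 of their summed FPKM with piceatannol and 3.42% ± 0.170 in control (SD, n = 3 each).

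**Figure D5:**
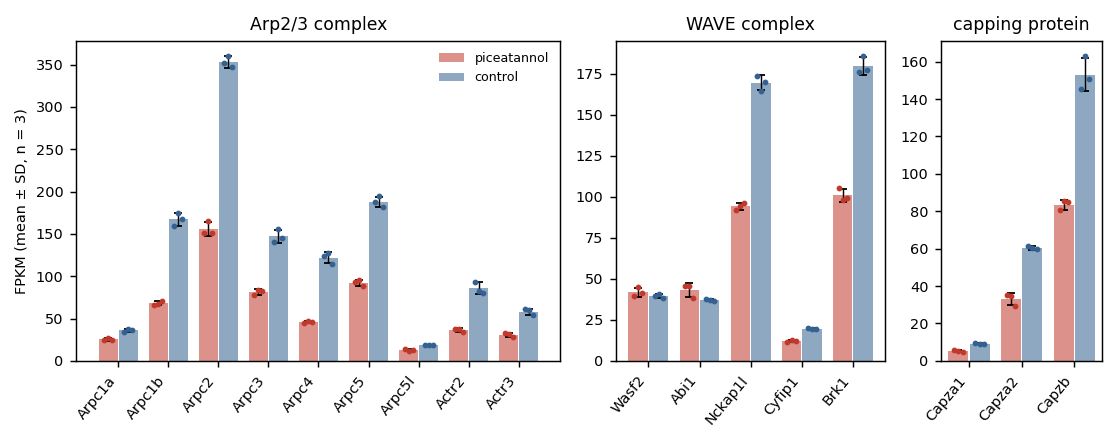
Level per length (FPKM; bars are means, error bars SD over 3 libraries, points the libraries) of the genes of the Arp2/3 complex, the WAVE complex and capping protein. All Arp2/3 and capping protein genes are lower with piceatannol, whereas in the WAVE complex Wasf2 stands at 41.8 FPKM with piceatannol and 39.5 in control.

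All 5 genes that lengthen unbranched filaments fell, and their median was -2.19 on the log2 scale. Vasp encodes VASP, which speeds elongation at the leading edge (chromosome 7, 19256929 to 19271817, GRCm38), and had 157, 166 and 170 CPM with piceatannol, against 725, 814 and 757 CPM in control. Evl, its relative, had 20.6, 20.5 and 19.4 CPM with piceatannol and 90.3, 103 and 94.6 CPM in control. The log2 fold change was -2.22 ± 0.07 for Vasp and -2.25 ± 0.07 for Evl (SE), with wide gaps between the groups. The share of Vasp in their summed FPKM was 90.1% ± 0.629 with piceatannol and 90.0% ± 0.0603 in control (SD, n = 3 each; exact two-sided permutation p = 0.7).

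Among the formins, Fmnl1, a formin of blood cells (chromosome 11, 103171107 to 103198901, GRCm38), fell 4.55-fold, to 128 ± 17.1 CPM with piceatannol, against 580 ± 19.4 CPM in control (SD, n = 3 each). Diaph2, of the formin mDia3, fell by 1.35 on the log2 scale. Diaph1, of the formin mDia1, fell least of the 5: it had 355, 390 and 399 CPM with piceatannol and 529, 516 and 497 CPM in control (-0.43 ± 0.06, SE). Its groups were still apart. Formin genes outside the 49 went both ways. Fhod3 (2.08), Fmnl2 (1.37) and Daam1 (1.23) rose, Diaph3 (-1.26), Fhod1 (-0.56) and Fmnl3 (-0.51) fell, and Fmn1, Inf2 and Daam2 did not pass.

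All 5 capping genes fell. Gsn, the gene of gelsolin, which cuts filaments in calcium and then caps them (chromosome 2, 35256380 to 35307892, GRCm38), had 249, 296 and 267 CPM with piceatannol, against 889, 948 and 892 CPM in control (-1.75 ± 0.07, SE). Capg, the macrophage capping protein gene of the same family, had 601, 618 and 666 CPM with piceatannol and 908, 1006 and 961 CPM in control (-0.61 ± 0.07, SE). Gsn thus lay further below control than Capg, and Capg made up 74.4% ± 1.83 of their summed FPKM with piceatannol and 56.8% ± 0.675 in control (SD, n = 3 each). Among the genes of capping protein, Capza1 had a log2 fold change of -0.78, Capza2 of -0.85 and Capzb, the beta subunit gene, of -0.85. The share of Capza1 in the summed FPKM of the alpha subunits was 13.9% ± 0.314 with piceatannol and 13.2% ± 0.25 in control (SD, n = 3 each; exact two-sided permutation p = 0.2, unpaired), and it was higher with piceatannol in all 3 same-numbered pairs. Capza1 is uncertain, since 77.5% of its 50-base words occur in other genes' transcripts.

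Of 4 crosslinker genes, 3 fell and 1 rose. Lcp1, the gene of L-plastin, the bundling protein of white blood cells (chromosome 14, 75131101 to 75230842, GRCm38), had 813, 830 and 836 CPM with piceatannol, against 2280, 2400 and 2185 CPM in control (-1.47 ± 0.07, SE). Fscn1, the gene of fascin, which packs filaments into tight bundles and is known from mature dendritic cells, had 95.7, 167 and 136 CPM with piceatannol and 517, 570 and 543 CPM in control. Fscn1 varied more among the piceatannol libraries than Lcp1 did, and its log2 fold change was -2.03 ± 0.22 (SE), for which edgeR's quasi-likelihood F test gave a Benjamini-Hochberg adjusted p = 0.000655.

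The alpha-actinins differed. Actn1 averaged 154 ± 11.2 CPM with piceatannol and 491 ± 36.0 CPM in control (SD, n = 3 each), a fall of 1.68 on the log2 scale. Actn4 had 385, 383 and 405 CPM with piceatannol and 347, 351 and 352 CPM in control, a rise of 0.16 ± 0.06 on the log2 scale (SE), for which edgeR's quasi-likelihood F test gave a Benjamini-Hochberg adjusted p = 0.0169. The groups of Actn4 did not overlap, but its call was lost with no filter (adjusted p = 0.0842), without piceatannol replicate 3 (adjusted p = 0.069) and without control replicate 1 (adjusted p = 0.0608) in the same test. Actn1 made up 30.3% ± 1.59 of their summed FPKM with piceatannol and 60.8% ± 1.66 in control (SD, n = 3 each).

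Other genes of actin regulation, taken from lists by role, also fell more often than they rose. Among 104 that could be tested there were 59 falls and 27 rises, and the median was -0.51 on the log2 scale. Of all genes tested, 38.3% fell and 38.8% rose. The filament-binding list had 21 falls and 2 rises among 28 genes. Among them Aif1, the gene of the macrophage bundling protein Iba1, averaged 3.86 ± 0.931 CPM with piceatannol and 142 ± 13.5 CPM in control (SD, n = 3 each; log2 fold change -5.17), and the calponin gene Cnn1 had a log2 fold change of -2.80. Avil (1.21), of advillin, and the coronin gene Coro6 (0.41) were the rises.

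Other nucleator genes had 11 rises and 6 falls among 22 (median 0.34, log2 scale), where 38.8% of all genes tested rose and 38.3% fell. The WAVE1 gene Wasf1 (3.22) and the formin gene Fhod3 (2.08) had the largest rises, at levels of 3.49 ± 0.536 and 0.893 ± 0.179 CPM with piceatannol and 0.373 ± 0.0397 and 0.215 ± 0.137 CPM in control (SD, n = 3 each). The WAVE complex adaptor genes Abi3 (-2.67) and Abi2 (-1.36) had the largest falls. The difference between these genes and the 49 was not tested.

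Of 14 genes of kinases, phosphatases and the SRF axis, 6 fell, with Pak1 (-2.45), of a kinase that signals to the cytoskeleton, and Limk1 (-0.76), of a cofilin kinase, the lowest. In the same list 4 rose, with Mkl2 (1.11), of an SRF cofactor, and Ssh1 (0.73), of a cofilin phosphatase, the highest. These counts lie near the shares over all genes tested, 38.3% lower and 38.8% higher, and so are no result about the list.

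Motor and membrane linker genes fell in most cases, where 38.3% of all genes tested fell and 38.8% rose. Of 15 non-muscle myosin genes, 12 fell, among them the myosin light chain kinase gene Mylk (-2.81) and the light chain gene Myl9 (-2.40), and 2 rose, Myo5a (1.16) and Myo1d (0.20). The linker genes Msn (-0.61) and Ezr (-0.60) fell and Rdx (0.18) rose. Of the muscle actins, Acta2 (-3.30) and Actg2 (-3.10) fell, and Acta1 and Actc1 were too low to be tested.

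Markers of other cell types also differed between the groups, where 38.3% of all genes tested fell and 38.8% rose. Of 8 fibroblast markers 6 fell and 0 rose, and their summed level was 521 to 584 CPM with piceatannol and 2212 to 2467 CPM in control. The collagen genes Col1a1 (-2.04), Col1a2 (-2.13) and Col3a1 (-2.56) made up most of this sum. Pdgfra (-0.54), Pdgfrb (-0.81) and Thy1 (-1.01) fell by less, and Dcn (-0.26) and Lum (-0.70) did not pass. Of 4 tested smooth muscle markers 3 fell (Tagln, Acta2 and Cnn1, which are also counted in the lists of actin regulators), with sums of 51.4 to 54.7 CPM with piceatannol and 323 to 379 CPM in control. All 8 tested neutrophil markers fell, with sums of 34.9 to 42.8 CPM with piceatannol and 259 to 604 CPM in control. S100a8 and S100a9 made up most of these sums. Elane, Mpo and Camp averaged only 0.867, 1.31 and 0.548 CPM in control, the groups of Mpo overlapped, and Ly6g was too low to be tested. Of 8 tested dendritic cell markers 6 fell and 1 rose, with sums of 1813 to 2112 CPM with piceatannol and 6888 to 7770 CPM in control. H2-Ab1 made up most of these sums. Clec9a was the rise, and Ccr7 did not pass. No marker of these lists was at 0 in all libraries, and the part of such cells in the falls of the actin genes was not tested.

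Of the 9 macrophage markers 7 fell and 2 rose, with sums of 13331 to 14798 CPM with piceatannol and 18788 to 22786 CPM in control. Lyz2 alone made up most of these sums, and the markers differed widely. Cd14 (1.93) and Cd68 (1.11) were the rises, while Fcgr1 (-3.35) and Itgam (-2.13) had the lowest log2 fold changes. Endothelial markers rose in 3 of 3 tested cases (399 to 485 CPM with piceatannol and 101 to 115 CPM in control). Vwf made up most of this sum, at 368 ± 21.4 CPM with piceatannol and 86.2 ± 2.01 CPM in control (SD, n = 3 each). Cdh5 averaged only 0.769 CPM with piceatannol and 0.423 CPM in control, and Tek was too low to be tested. Sums for megakaryocytes were 267 to 319 CPM with piceatannol and 283 to 309 CPM in control, with 1 of 4 tested genes higher and 1 lower. For mast cells, with Mcpt4 at 0, they were 67.0 to 85.0 CPM with piceatannol and 20.5 to 25.3 CPM in control, with 1 of 2 tested genes higher and 1 lower. Kit, the higher one, made up most of the mast cell sums. Cpa3, the lower one, averaged 0.0529 CPM with piceatannol and 1.73 CPM in control, and Tpsb2 was too low to be tested. Beside 38.3% lower and 38.8% higher over all genes tested, the counts for megakaryocytes and mast cells are no result about these lists. Lymphocyte markers stayed under 2.15 CPM in sum in every library, with 3 of 3 tested genes lower. Leaving out the mitochondrially encoded genes, whose share of the counts also moved with the groups, gave the same 39 falls and 7 rises among the 49 genes, an alternative chosen after the data were seen.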

How the data were processed

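The authors deposited raw counts per gene symbol, as whole numbers, and FPKM values for the same 6 libraries. Per the submitters' processing notes the tools were STAR, featureCounts, bcl2fastq and DESeq2, without versions, and the builds mm10 and GRCm38. The annotation, strand setting and handling of multi-mapping reads are not stated, so reads of overlapping antisense genes cannot be separated (16.5% of the exon bases of Cfl1 and 18.2% of those of Arpc1b overlap exons on the other strand). On the same strand, 13.5% of the exon bases of Coro1b overlap exons of Ptprcap, and 12.2% of those of Arpc4 overlap exons of Ttll3. How reads there were counted is not stated either, which limits the values of Coro1b and Arpc4. Per the labels, a TruSeq kit and 1 µg of total RNA were used for each library.

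Counts were filtered with filterByExpr (minimum count 10), scaled with TMM factors of 0.985 to 1.02 and tested with edgeR 4.0.16 (quasi-likelihood, robust, two-sided, no covariate) in R 4.3.3. Adjusted p-values are Benjamini-Hochberg over every tested gene, and 0.05 was the threshold. Standard errors are the size of the log2 fold change over the square root of F. The fit was tested on simulated counts. DESeq2 1.42.0, limma 3.58.1 on voom values and on log2 FPKM computed from the deposited table, other filters and scalings, and leaving out each library were the alternatives. CPM values compare groups and FPKM values compare genes.

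Replicate numbers come from the titles. Deviations from the group means correlated at 0.115, 0.121 and 0.134 for the 3 same-numbered pairs across genes, and at -0.120 to 0.00575 for the other pairs. The libraries may thus be paired by number, though the labels do not say so. The main fit and the permutation tests are unpaired, and a fit with the number as a block is given below. Within groups, counts differed by more than sampling noise (chi-square divided by its degrees of freedom, 9.88 to 18.1). Gene positions and the shared 50-base words come from GENCODE M21 on GRCm38, the latter counted on both strands over the longest transcript, and promoters from RefSeq.

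The 49 genes, the role, pathway and marker lists and the rule for named genes were chosen with earlier results of these data known. The rule gave values in every library for Actb, Actg1, Tmsb4x, Pfn1, Cfl1 and, in each role, the gene with the highest FPKM and those with the highest and lowest fold change. From the other lists it named up to 2 rises and 2 falls each. Genes named beyond it were chosen after their values were seen. One list of actin regulators, counted in the total over these lists, is not reported here.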

Additional observations from a re-analysis of the deposited data

How the results depend on the processing

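Of 882 log2 fold changes of single genes under 18 alternatives, 871 kept their direction and their side of the threshold where one was called, 8 fell short of it, 3 newly passed and 0 of the called ones reversed. The genes never called changed sign in some fits, Twf1 between -0.01 and 0.08 and Coro1b between -0.09 and 0.04. Those that fell short were Actg1, Actn4 and Cttn, with an adjusted p of at most 0.0842; for Actg1 this included the removal of GC and length trends (adjusted p = 0.0646). Those that newly passed were Wasf2 with upper-quartile factors (adjusted p = 0.0258), with the stricter filter (adjusted p = 0.0179) and with GC and length trends removed (adjusted p = 0.0138, chosen after the data were seen). The count of falls among the 49 genes lay between 38 and 39 in these fits, and that of rises between 6 and 8. Requiring a 1.5-fold change as well as an adjusted p under 0.05 left 3 rises, fewer by construction, and 33 falls. With the replicate number as a block, 39 genes fell and 7 rose, and the block changed no call among the 49 genes; of the other actin regulators 60 fell and 27 rose. With TMM the median log2 fold change of all genes was 0.01, and it was between -0.02 and 0.06 with the other scalings. Low counts limit Pfn2 and Actg1, the scarcest of the 49 genes.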
